A study of Homo sapiens with 6 samples.

Results

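The transcripts described here are those of 8 interferon regulatory factors (IRFs) and STAT proteins, IRF1, IRF2, IRF3, IRF7, IRF9, STAT2, STAT3 and STAT6. They were taken by gene symbol from an expression table of 12829 genes, and all 8 were present. Another 5 rows of the table carry IRF or STAT symbols and are not analysed here. The table comes from RNA-seq of HaCaT cells, an immortal, aneuploid line of human keratinocytes that stands in for basal epidermis in many studies. The 3 control libraries, labelled as normal control with wild-type genotype, were compared with 3 libraries labelled shIQGAP2, in which a short hairpin RNA lowers IQGAP2, a scaffold protein that binds actin and calmodulin. All cells were grown in DMEM with 10% fetal bovine serum, and no interferon or other cytokine treatment is given in the labels. The labels do not say how many hairpins were used, whether the controls carried one that targets nothing, or whether replicates were separate cultures. The sample titles call the replicates biological. The p-values set the difference between the groups against the spread of libraries within them. If the cultures were not separate, that spread may be technical.

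IRFs bind DNA through a conserved domain that recognises GAAA repeats, and STATs bind as dimers to a shorter palindrome once a JAK kinase at a cytokine receptor has phosphorylated them on a tyrosine. IRF3 and IRF7 are activated by kinases downstream of nucleic acid sensors and switch on the interferon genes, while STAT2 and IRF9 belong to ISGF3, the complex through which type I and type III interferon drive the interferon-stimulated genes. IRF1 is an activator induced by interferon, and IRF2 is known mainly as its antagonist at shared sites. STAT3 carries signals of the IL-6 and IL-20 families and of growth factor receptors in keratinocytes, and STAT6 those of IL-4 and IL-13, the cytokines of atopic skin.

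Of the 8 members, 5 had a RefSeq promoter (GRCh38.p14, 250 bases before to 50 bases after the start). Each was searched on both strands for the interferon-stimulated response element of ISGF3 and IRFs (GAAA, any 2 bases, GAAA), for the gamma-activated site of STAT dimers (TTCNNNGAA) and for the wider STAT6-type site (TTC, any 4 bases, GAA). The gamma-activated site is its own reverse complement in these letters, as is the STAT6-type site, and neither overlapped another searched motif in the members. The IRF1 and IRF9 promoters held a gamma-activated site, a motif found in 7.66% of all 35116 promoters searched, and no other match occurred in the 5 promoters, which include those of STAT2, STAT3 and STAT6. Both sites are shown because these genes are members and also carry a site that members of the STAT family bind. The windows lie at chr5:132490869-132490917 on the minus strand for IRF1 and at chr14:24161182-24161230 on the plus strand for IRF9, with the site in capitals starting 124 and 63 bases before the annotated start.
IRF1: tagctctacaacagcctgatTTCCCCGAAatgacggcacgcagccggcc
IRF9: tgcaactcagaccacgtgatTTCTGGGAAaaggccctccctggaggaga
A match describes the letters only, and says nothing about binding in these cells.

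Levels are in FPKM, that is, fragments counted per kilobase of a gene's length and set relative to the depth of the library, and group values are mean ± SD over 3 libraries (n = 3). The whole reads behind the values were recovered and summed to between 12901037 and 15360759 per library. IQGAP2 itself was low in the control libraries, at 0.200, 0.198 and 0.190 FPKM (24, 22 and 21 reads), and lower in the libraries labelled knockdown, at 0.0196, 0.0328 and 0.0182 FPKM (2, 4 and 2 reads). For IQGAP2 an exact permutation test, two-sided, gave p = 0.1, the smallest that this test can give for 3 libraries against 3. Knockdown replicate 2 stood apart: over recovered reads its chi-square against the other knockdown libraries, divided by the degrees of freedom, was 11.3 and 10.5, and the other pairs within a group had 2.10 to 2.49. All 10 keratinocyte markers were expressed. In limma 7 of them were higher and none lower (median log2 change 0.28), beside 29.5% higher and 27.8% lower of all tested genes. The rises ran from TP63, with 101 ± 0.980 FPKM in control libraries against 114 ± 5.50 FPKM, to DSG3 (chosen after its values were seen), with 50.3 ± 1.08 against 106 ± 8.11 FPKM. KRT14, the most abundant of the 10, went the other way, from 2570 ± 62.0 to 2310 ± 190 FPKM. Its groups did not overlap, but it did not pass (log2 change -0.16, adjusted p = 0.117 in limma). ITGB4 and TRIM29 did not pass either. Without knockdown replicate 2, 8 of the 10 markers were higher and 1 lower. Of 11 immune cell markers 2 were measured, CD14 and FCER1G, with a summed level of 0.465 to 1.10 FPKM in control libraries against 0.0467 to 0.261 FPKM. FCER1G was at 0 in the 3 knockdown libraries and had 2, 1 and 1 reads in the controls. CD14 had 14, 4 and 12 reads in the controls and 1, 4 and 6 after knockdown. Of 8 fibroblast markers 3 were measured (COL1A1, LUM and DCN), and their sum was 3.46 to 3.79 FPKM against 1.56 to 1.91 FPKM. They did not move together. LUM went from 2.21 ± 0.346 to 0.268 ± 0.134 FPKM and DCN from 0.207 ± 0.0508 to 0.0426 ± 0.0147 FPKM. COL1A1 was at 1.24 ± 0.159 and 1.44 ± 0.178 FPKM and did not pass. Of 7 endothelial and 5 melanocyte markers 2 and 1 were measured, each list summing to under 1 FPKM in every library. The endothelial markers moved in opposite directions, VWF from 0.142 ± 0.0311 to 0.423 ± 0.0528 FPKM and CDH5 from 0.179 ± 0.0886 to 0.0359 ± 0.0381 FPKM. The part of these markers in the results was not tested. In such bulk libraries fewer cells of a type and less RNA per cell cannot be told apart.

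Among the 8 members, IRF7 and STAT2 were higher and IRF2 and IRF3 lower in the knockdown, and IRF1, IRF9, STAT3 and STAT6 did not pass the test. The test was limma on log2(FPKM + 1) over the 11214 genes that averaged 0.5 FPKM or more, with Benjamini-Hochberg adjusted p-values and a threshold of 0.05. The knockdown differed from the control in 57.4% of these genes, 29.5% higher and 27.8% lower, so 4 of 8 members called is near the background. The values of the groups did not overlap for 5 members, against 65.1% of all genes tested. The median change of the members was 0.05 on the log2 scale and that of all tested genes 0.01, while the median size of change, without sign, was 0.24 for members and 0.22 for all. The members therefore moved about as often and as far as other genes, in both directions. The groups and replicates are shown in the plot of levels by library.

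**Figure D1:**
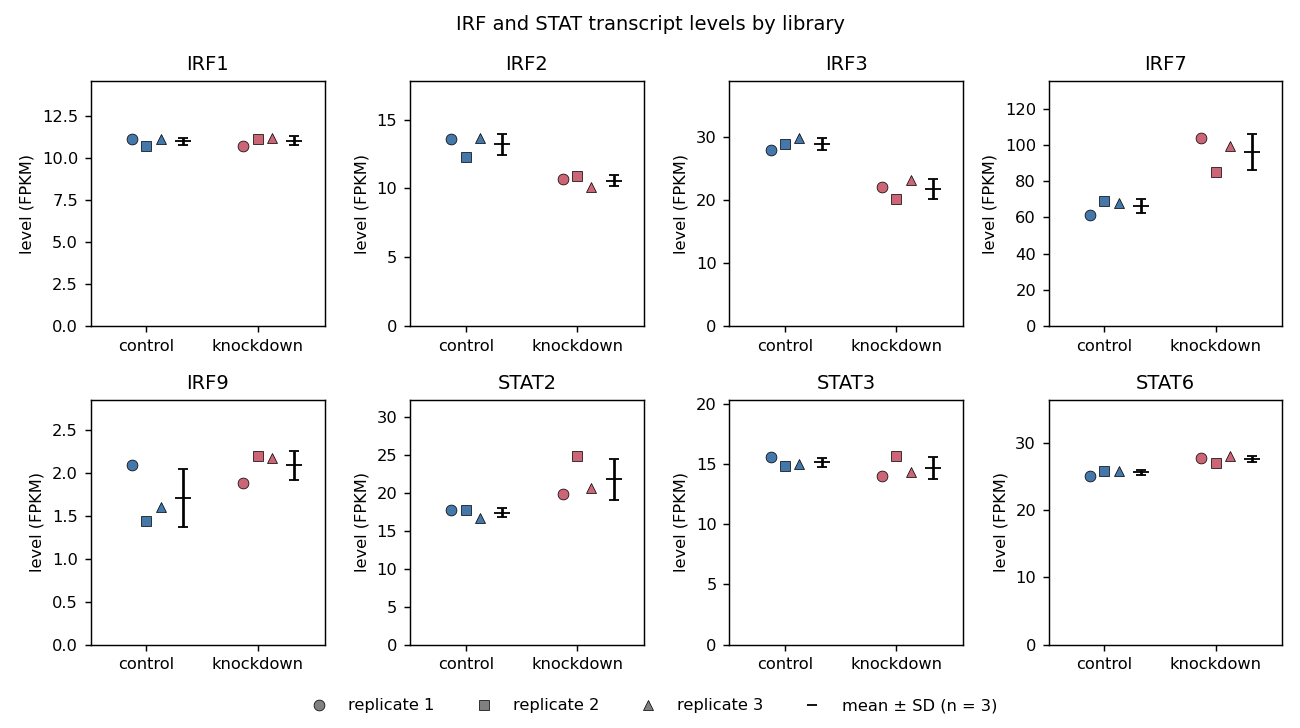
Level of each of the 8 transcripts in FPKM (y axis, linear from 0) in the 3 control and 3 knockdown libraries, with symbols for replicate numbers and the mean ± SD (n = 3) beside them. IRF7 and STAT2 lie higher and IRF2 and IRF3 lower in every knockdown library, while IRF1, IRF9 and STAT3 overlap between the groups.

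IRF7, the factor that amplifies interferon production once it has been induced, had the largest change of the 8. Its level was 61.5, 68.8 and 68.1 FPKM in control replicates 1, 2 and 3 and 104, 84.8 and 99.1 FPKM in knockdown replicates 1, 2 and 3. All knockdown libraries lay above all control libraries, and knockdown replicate 2 was the lowest of its group. The mean rose 1.45-fold, with group means of 66.1 ± 4.01 FPKM and 96.1 ± 10.2 FPKM (log2 change 0.53, SE 0.076, adjusted p = 2.52e-04 in limma). Between 2450 and 3606 reads per library stood behind these values, so that counting alone would give a spread of 1.68% of the mean in the knockdown, where the measured spread was 10.6%. Of all tested genes, 12.9% had a larger change than IRF7. Without knockdown replicate 2 the log2 change was 0.62, and the call held in all 15 alternatives (highest adjusted p = 0.00200).

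IRF3, the constitutively made factor that starts the interferon response, moved the other way. It was at 27.9, 28.9 and 29.9 FPKM in the controls, and at 22.0, 20.1 and 23.1 FPKM after knockdown, in replicate order. Every knockdown library was lower than every control library, with knockdown replicate 2 the lowest. The mean fell by 24.8%, with group means of 28.9 ± 0.995 FPKM and 21.7 ± 1.49 FPKM (log2 change -0.40, SE 0.058, adjusted p = 2.68e-04). This call also held in all 15 alternatives, with log2 changes of -0.44 to -0.24. In GENCODE v29, 19.3% of the exon bases of IRF3 are shared with BCL2L12, a gene on the opposite strand that encodes a BCL2-like protein, and it is not given whether counting used strand. BCL2L12 was at 24.0, 26.4 and 24.9 FPKM in the controls, and at 16.6, 13.1 and 16.4 FPKM after knockdown, and also fell (log2 change -0.68, adjusted p = 8.68e-05). How far reads of BCL2L12 enter the IRF3 values was not tested.

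IRF2 fell while its counterpart IRF1 stayed at the same mean. IRF2 was at 13.6, 12.3 and 13.7 FPKM in the controls, and at 10.7, 10.9 and 10.1 FPKM after knockdown. The groups did not overlap, and the mean fell by 19.7%, with group means of 13.2 ± 0.756 FPKM and 10.6 ± 0.408 FPKM (log2 change -0.29, SE 0.059, adjusted p = 0.00202). The IRF2 call was lost when each library was rescaled to a common sum of FPKM (log2 change -0.14, adjusted p = 0.107, alternatives spanning 0.00127 to 0.107).

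IRF1 was at 11.1, 10.7 and 11.1 FPKM in the controls, and at 10.7, 11.1 and 11.2 FPKM after knockdown. The libraries of both groups were interleaved, and the log2 change was 0.00 (SE 0.052, adjusted p = 0.990) with a 95% interval of -0.11 to 0.12. Among tested genes 99.8% had a larger change. With 1704 to 2100 reads per library, the spread between replicates (1.91% in control, 2.52% in knockdown) was close to that of counting alone (2.26% and 2.29%). On a common sum IRF1 passed as higher (log2 change 0.15, adjusted p = 0.0487), and removal of the length trend gave -0.09 (adjusted p = 0.172), so no direction is given. Exons of 2 annotated genes on the opposite strand cover 22.0% of the IRF1 exon bases.

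The ratio of IRF1 to IRF2, which a single factor per library cannot change, was 0.819, 0.871 and 0.810 in control libraries and 0.999, 1.01 and 1.11 in knockdown libraries. It was higher in 3 of 3 knockdown libraries than in any control library, at 1.04 ± 0.0591 against 0.833 ± 0.0331 (log2 difference 0.32). An exact permutation test, two-sided, returned p = 0.1, the smallest possible here, and 0.3 adjusted over the 3 ratios computed between members. Removal of the length trend, which acts on each gene by its length, brought the changes of both genes closer together, to -0.09 for IRF1 and -0.20 for IRF2 on the log2 scale, against 0.00 and -0.29 with the values as deposited.

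Of the ISGF3 subunits, STAT2 rose and IRF9 did not pass. STAT2 was at 17.7, 17.7 and 16.7 FPKM in the controls, and at 19.8, 24.8 and 20.6 FPKM after knockdown. Here knockdown replicate 2 was the highest, whereas it had the lowest IRF7 and IRF3 of its group. The mean rose 1.25-fold, with group means of 17.3 ± 0.582 FPKM and 21.7 ± 2.72 FPKM (log2 change 0.30, SE 0.077, adjusted p = 0.00708). Without knockdown replicate 2 the change was 0.21 (adjusted p = 0.00341), and with any other library left out it was 0.28 to 0.37. The STAT2 call held in all 15 alternatives.

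IRF9, the DNA-binding subunit of ISGF3, was the lowest of the 8. It was at 2.09, 1.44 and 1.61 FPKM in the controls, and at 1.89, 2.20 and 2.18 FPKM after knockdown, from 73 to 122 reads per library. Control replicate 1 lay above knockdown replicate 1, so the groups overlapped. The means were 1.71 ± 0.335 and 2.09 ± 0.175 FPKM (log2 change 0.19, 95% interval -0.02 to 0.41, adjusted p = 0.112). Without control replicate 1 the change was 0.29 and passed (adjusted p = 0.0265), as it did on a common sum (0.30, adjusted p = 0.0247) and with the length trend removed (0.25, adjusted p = 0.0439), alternatives spanning 0.0247 to 0.349. GENCODE v29 annotates a further protein-coding gene, AL136295.5, on the same strand over 48.4% of the IRF9 exon bases, and how reads there were assigned is not given. The level of IRF9 is uncertain for that reason. The IRF9 to STAT2 ratio overlapped between groups, at 0.0987 ± 0.0184 in control and 0.0967 ± 0.00880 in knockdown libraries (log2 difference -0.02, exact two-sided permutation p = 0.9, adjusted p = 0.9).

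STAT3 was at 15.6, 14.9 and 15.0 FPKM in the controls, and at 14.0, 15.7 and 14.4 FPKM after knockdown. Knockdown replicates 1 and 3 were below all controls and knockdown replicate 2 was above them. The log2 change was -0.05 (SE 0.056, 95% interval -0.17 to 0.08, adjusted p = 0.488). The sign of STAT3 changed with the scaling: it was 0.11 on a common sum (adjusted p = 0.195), and STAT3 was called lower with the length trend removed (-0.16, adjusted p = 0.0147, alternatives spanning 0.0147 to 0.844).

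STAT6 was at 25.2, 25.9 and 25.9 FPKM in the controls, and at 27.8, 27.1 and 28.1 FPKM after knockdown. All knockdown libraries were higher, but the difference was small, 7.62% of the control mean, and did not pass (log2 change 0.10, SE 0.044, adjusted p = 0.0693). It passed without knockdown replicate 2 (0.12, adjusted p = 0.0227), on a common sum (0.26, adjusted p = 6.42e-04) and with quantile normalization (0.16, adjusted p = 0.0118), while removing the length trend left 0.03 (adjusted p = 0.653). The STAT3 to STAT6 ratio was 0.617, 0.575 and 0.580 in control and 0.503, 0.578 and 0.511 in knockdown libraries. These values overlapped through knockdown replicate 2 (log2 difference -0.16, exact two-sided permutation p = 0.2, adjusted p = 0.3).

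**Figure D2:**
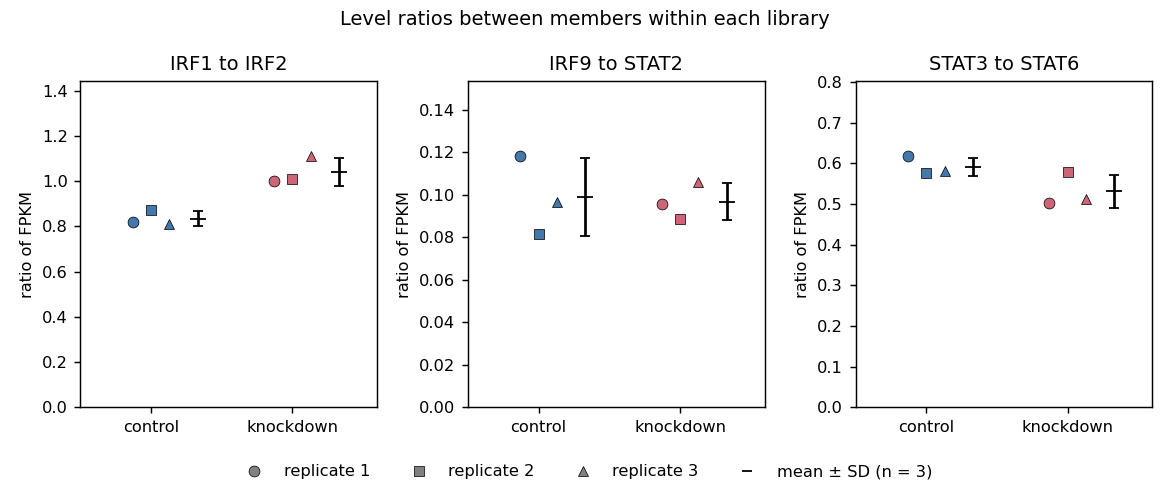
Ratio of FPKM between pairs of members within each library (y axes, linear from 0), for 3 control and 3 knockdown libraries with the mean ± SD (n = 3). The IRF1 to IRF2 ratio lies between 0.999 and 1.11 in the knockdown and between 0.810 and 0.871 in the control, while the other ratios overlap between the groups.

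The split of calls depended on scaling. The summed FPKM of a library was 271372 to 274709 in the control group and 234624 to 248082 in the knockdown group. Rescaling to a common sum moved the median change of all genes to 0.14, and 72.6% of all calls were then higher, against 51.5% with the values as deposited. Of the members, 5 were then higher (IRF1, IRF7, IRF9, STAT2 and STAT6) and 1 lower (IRF3). Relative to that median, IRF7 at 0.69 and STAT2 at 0.46 stood above it, IRF1 at 0.15 lay on it, and IRF2 at -0.14 and IRF3 at -0.24 stood below it. With the length trend removed, IRF7, IRF9 and STAT2 were higher and IRF2, IRF3 and STAT3 lower. IRF7 and STAT2 as higher and IRF3 as lower were the calls present in all 15 alternatives, as the plot of changes over alternatives shows.

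**Figure D3:**
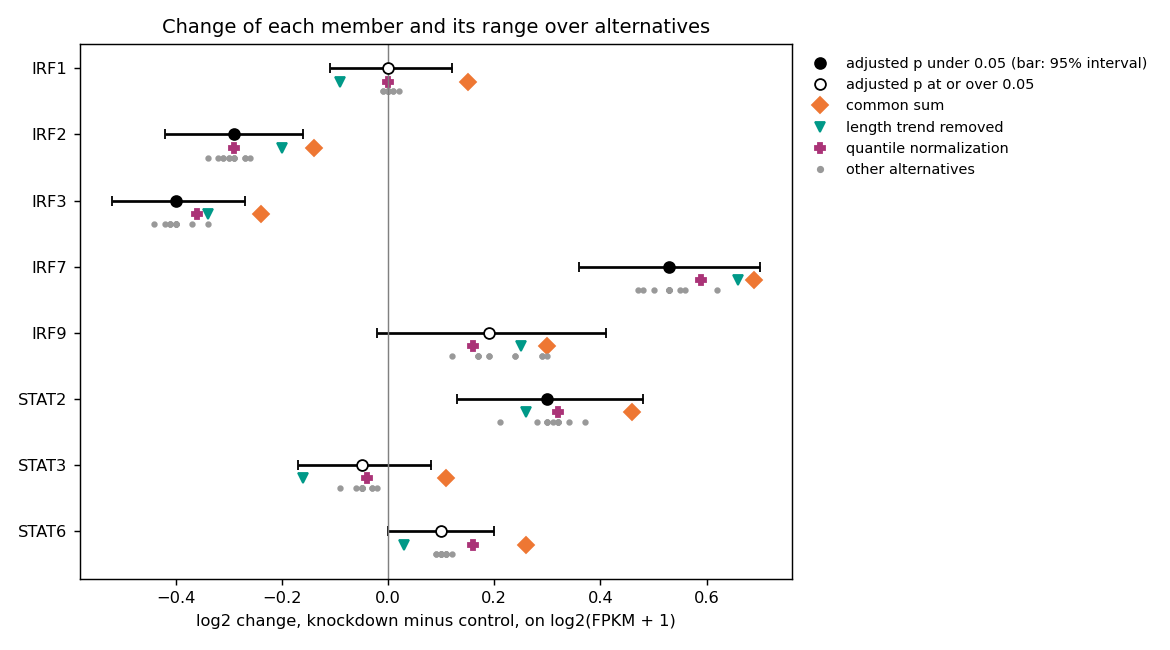
Log2 change of each member, knockdown minus control, on log2(FPKM + 1) (x axis), with its 95% interval from limma (black, filled where the adjusted p was under 0.05) and the values under the alternative settings below it. The intervals are not adjusted over genes. Those of IRF2, IRF3, IRF7 and STAT2 exclude 0, and that of STAT6 has its lower end at 0.00 after rounding. The common sum moved every member upwards.

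In the control libraries the order of levels was IRF7, IRF3, STAT6, STAT2, STAT3, IRF2, IRF1 and IRF9, and the values of neighbours in this order did not overlap. In the knockdown libraries it was IRF7, STAT6, STAT2, IRF3, STAT3, IRF1, IRF2 and IRF9. The ranges of STAT2 and IRF3, which had been apart at 17.3 and 28.9 FPKM in control, overlapped there at means of 21.7 FPKM each, and so did those of IRF1 and IRF2. FPKM is a level per length, so the order rests on the gene lengths the authors used. For IRF1 and STAT3 the reads and FPKM implied a gene length 1.57 and 1.27 times that in GENCODE v29, which makes their levels lower by that factor than with the shorter models, and for the other 6 members the length was between 0.944 and 1.015 times that of GENCODE. The length trend was removed with the GENCODE lengths. Its values for IRF1 and STAT3, and the call of STAT3 as lower there, therefore rest on lengths that differ from the implied ones.

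Receptors that act on STATs changed in both directions, and of the 3 JAK kinases 2 were higher and none lower in limma. Of 18 receptors of interferons and STAT-activating cytokines, 15 were measured and 14 passed the filter on low values, of which 3 were higher (IL6ST, IFNLR1 and IL20RA) and 4 lower (IFNGR1, IFNGR2, IL4R and LIFR), with a median change of 0.01, and 5 and 4 on a common sum. The 7 receptors called of 14 are near the 57.4% called among all tested genes. IL6ST, the shared signalling chain of the IL-6 family upstream of STAT3, rose from 10.6 ± 0.149 to 20.7 ± 1.32 FPKM, with a log2 change of 0.91 (adjusted p = 1.40e-06). Both chains of the interferon gamma receptor fell, IFNGR1 from 94.5 ± 1.32 to 70.2 ± 2.26 FPKM and IFNGR2 from 19.1 ± 0.611 to 12.6 ± 0.368 FPKM. IL4R, the receptor chain upstream of STAT6, fell from 22.9 ± 0.569 to 15.4 ± 0.867 FPKM (log2 change -0.55, adjusted p = 2.35e-05). IFNAR1, a chain of the type I interferon receptor, was at 7.04 ± 0.0543 and 6.86 ± 0.612 FPKM and did not pass (adjusted p = 0.671). Of the 3 JAK kinases, JAK1 rose from 11.1 ± 0.389 to 14.5 ± 0.718 FPKM and JAK2 from 1.90 ± 0.0849 to 2.97 ± 0.481 FPKM, while TYK2 was at 10.6 ± 0.152 and 10.7 ± 0.0943 FPKM (adjusted p = 0.803) and passed as higher on a common sum (0.17, adjusted p = 0.0309), above a median of all genes of 0.14 there.

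Among 19 measured sensors of nucleic acids, their adaptors and the kinases that act on IRF3 and IRF7, 7 were higher and 3 lower (median 0.11), and 11 and 1 on a common sum. Counts here and in the lists below stand beside those of all 11214 tested genes. Of these, 29.5% were higher and 27.8% lower, and on a common sum 4864 genes were higher and 1838 lower. The sensor gene DDX58 (RIG-I) rose from 0.387 ± 0.0436 to 1.74 ± 0.429 FPKM, and IFIH1 (MDA5) from 25.0 ± 0.628 to 44.3 ± 1.18 FPKM. EIF2AK2, the kinase PKR that senses double-stranded RNA, rose from 16.0 ± 0.592 to 25.2 ± 3.04 FPKM. The 3 that fell were STING1 and TICAM1, adaptors of DNA sensing and of TLR3, and IKBKE, a kinase of IRF3 and IRF7, which went from 13.5 ± 1.19 to 9.59 ± 0.563 FPKM. Of 26 negative regulators and cofactors, 13 were higher and 4 lower (median 0.19), and 17 and 2 on a common sum. USP18, which restrains type I interferon signalling at its receptor, rose from 38.0 ± 2.30 to 68.1 ± 1.96 FPKM. The coactivator CREBBP rose from 3.48 ± 0.193 to 6.33 ± 0.730 FPKM, and SOCS4, of the family of cytokine signalling suppressors, from 6.79 ± 0.353 to 11.7 ± 1.55 FPKM. SOCS3, the feedback inhibitor of STAT3, rose from 15.2 ± 0.713 to 18.7 ± 0.907 FPKM. SOCS1 was at 2.54 ± 0.416 and 2.10 ± 0.709 FPKM and did not pass (adjusted p = 0.243), although leaving out knockdown replicate 3 gave a call as lower (-0.39, adjusted p = 0.0181, alternatives spanning 0.0181 to 0.881). The 4 lower genes were CISH, PIAS4, PTPN6 and IRF2BP1.

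Known targets of the factors differed by list, as plotted for the pathway genes. The lists were chosen with earlier results of these data known, so their counts are given as a description. Of 30 ISGF3 targets, 24 were higher and 2 lower, with a median of 0.61 beside 0.01 for all genes, and 26 and 1 on a common sum. Among all tested genes 29.5% were higher and 27.8% lower. RSAD2 (viperin), ISG15 and XAF1 had the largest rises, with log2 changes of 1.50, 1.31 and 1.22. The 2 that fell, named after their values were seen, were BST2 (tetherin), from 413 ± 1.61 to 248 ± 22.5 FPKM, and IFI27, from 272 ± 10.9 to 241 ± 16.8 FPKM. Of 18 tested targets of IRF1 and gamma-activated sites, 6 were higher and 7 lower (median -0.03), and 8 and 3 on a common sum. WARS1, a tryptophanyl-tRNA synthetase, rose from 101 ± 1.74 to 178 ± 6.93 FPKM and the chemokine CXCL10 from 4.06 ± 0.812 to 7.04 ± 1.02 FPKM, while the GTPase GBP2 fell from 5.64 ± 0.486 to 2.46 ± 0.249 FPKM. CIITA, the regulator of MHC class II genes, lay below the filter at 0.551 ± 0.0501 and 0.145 ± 0.0228 FPKM.

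Of 20 STAT3 targets, 10 were higher and 7 lower (median 0.08), and 12 and 5 on a common sum, beside 29.5% higher and 27.8% lower of all tested genes as deposited. The acute-phase gene SAA1 and the lipocalin LCN2 fell, with log2 changes of -2.43 and -1.91, and the alarmin S100A8 rose by 1.77. Of 8 measured STAT6 targets 6 passed the filter, of which none was higher and 5 lower in limma (median -0.59), counts that were the same on a common sum, with the length trend removed and without knockdown replicate 2. None was higher at an unadjusted p under 0.05 in limma or in voom either. The 2 below the filter were CCL26, at 0.364 ± 0.384 and 0.135 ± 0.0604 FPKM, and CDH26, at 0.372 ± 0.134 and 0.589 ± 0.0351 FPKM. The lower genes were SERPINB4 from 52.2 ± 1.03 to 22.6 ± 1.89 FPKM, SERPINB3, CA2 (carbonic anhydrase) from 273 ± 4.43 to 179 ± 10.8 FPKM, CISH from 1.05 ± 0.122 to 0.361 ± 0.155 FPKM, and IL4R, given above. SERPINB3 and SERPINB4 are near-identical copies, so the division of reads between them is uncertain. IL4R counts in 3 of the lists, and SOCS1, SOCS3 and CISH in 2 each.

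**Figure D4:**
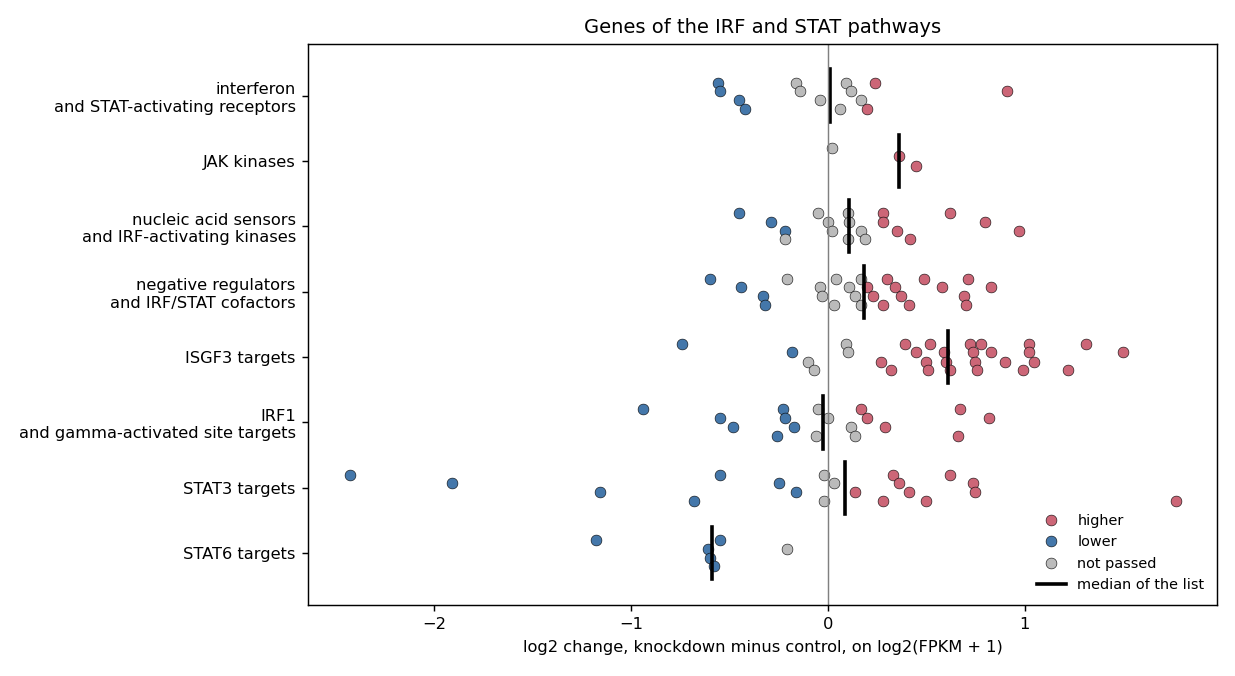
Log2 change, knockdown minus control, on log2(FPKM + 1) (x axis) for each tested gene of 8 lists of pathway genes (rows), coloured by the limma call, with the median of each list as a black bar. ISGF3 targets lie mostly to the right of 0 (24 of 30 higher) and STAT6 targets to the left (5 of 6 lower), while IRF1 and STAT3 targets lie on both sides. The lists were chosen with earlier results of these data known.

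The interferon-stimulated response element, whose letters are given above, was in 3.57% of all promoters and in 18 of the 26 ISGF3 target promoters at hand. The ISG15 and BST2 promoters are shown because both hold the element while their transcripts moved in opposite directions. The windows lie at chr1:1013370-1013419 on the plus strand and chr19:17405725-17405774 on the minus strand, with the element in capitals. In both promoters a further match, partly in lower case here, overlaps the printed element.
ISG15: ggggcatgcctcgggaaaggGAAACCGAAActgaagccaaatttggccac
BST2: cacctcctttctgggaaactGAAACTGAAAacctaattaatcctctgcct
Among all tested genes with a promoter, 260 held the element, of which 38.5% were higher in the knockdown and 25.8% lower. Of the 8851 without it, 29.3% were higher and 27.5% lower. Without the 8 members and the listed pathway genes, 227 genes with the element remained. Of these, 77 (33.9%) were higher and 64 lower, with a median change of -0.01. For the gamma-activated site, the site of IRF1 and IRF9 shown above, 27.5% of 568 genes with it were higher and 31.3% lower. Of the genes without it, 29.7% were higher and 27.2% lower.

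The patterns most like each member over the 6 libraries were described by Pearson's r of log2(FPKM + 1) among genes that averaged 5 FPKM or more. The libraries form 2 groups, so r mixes the difference between groups with the spread within them, and it is given as a description. For each member the 2 closest of 6842 genes are named, so high values of r over 6 libraries follow from the choice. SEC23A and PLEKHA2 followed STAT2 (r = 0.9997 and 0.9996), COPG1 and CDC42EP1 followed IRF7 (0.9989 and 0.9958), and MYL6 and FHL2 followed IRF3 (0.9987 and 0.9983). For IRF2 they were SLCO4A1 and EVPL (0.9928 and 0.9905), for STAT6 AMZ2 and GJB2 (0.9942 and 0.9922), and for STAT3 NIPSNAP3A and PEX2 (0.9899 and 0.9891). IRF9 and IRF1 were matched less closely, by SETD1B and RGS20 (0.9876 and 0.9718) and by PPWD1 and SMIM20 (0.9669 and 0.9595). STAT2, SEC23A and PLEKHA2 were each highest in knockdown replicate 2, the library that stood apart. Among the members themselves, r over the 6 libraries was 0.98 for IRF7 with STAT6, 0.60 for IRF7 with STAT2 and -0.93 for IRF3 with STAT2.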

How the data were processed

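The authors deposited 1 table of FPKM values, in which each of the 6 libraries has its own column. HISAT2 2.2.1 and GRCh38 are named, per the submitters' processing notes. What counted the reads, with which annotation and whether by strand, is not given in the sources used here. Per the labels' protocols, total RNA was extracted with TRIzol and prepared with a TruSeq RNA kit. Libraries were assigned to groups from the sample titles. Knockdown and control were compared on log2(FPKM + 1) by limma 3.58.1 (R 4.3.3), with a mean-variance trend, for genes that averaged 0.5 FPKM or more. This scale understates changes of low genes. Whole reads were recovered for 12829 of 12829 genes (100% of values whole within 0.004 reads) and used for depth and in voom; counts of a gene that all share a divisor may be too low by it. Voom called 3425 genes higher and 3184 lower, against 3313 and 3121. Intervals cover 95%, and were computed from the limma model. Scripts were tested on simulated data. Gene lengths and overlaps came from GENCODE v29, which matched 12818 identifiers. Alternatives were pseudocounts of 0.1 and 0.5, other filters, scalings, removal of the length trend, a replicate block, and leaving out each library. Named genes were the members, the 3 largest changes past the threshold in each pathway list, several receptors, kinases and inhibitors whatever their p, 3 keratinocyte markers, and the 2 genes most like each member; genes in counts of 5 or fewer were named after their values were seen. The members and lists were chosen with earlier results of these data known. The result of 1 gene of the list of negative regulators and cofactors is not reported here, and the list is counted without it.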

Additional observations from a re-analysis of the deposited data

How the results depend on the processing

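Pseudocounts of 0.1 and 0.5, no filter, a mean of at least 5 FPKM (which left IRF9 out) and voom kept the 2 higher and 2 lower members. On a common sum 5 members were higher and 1 lower, and 4864 of all genes were higher and 1838 lower. IRF1 had log2 changes of -0.00 with quantile normalization and -0.09 with the length trend removed, and -0.01 to 0.02 when a library was left out. STAT3 was at 0.11 and IFNAR1 at 0.11 on a common sum, and TYK2 at -0.04 with the length trend removed. The keratin gene KRT14 was at -0.16 with the values as deposited, and at -0.19 to -0.09 when a library was left out. Its sign changed with the scaling, to 0.01 on a common sum and 0.63 with quantile normalization. IFNAR1 ranged from -0.10 to 0.01 when a library was left out. The cause of these differences was not tested. IQGAP2 had a log2 difference of -0.22, and -1.26 with a pseudocount of 0.1, where a smaller addition to low values widens the difference. Leaving out a library gave 2 to 3 higher and 2 lower members, 2779 to 3250 higher and 2678 to 3212 lower genes, and log2 differences of -0.23 to -0.22 for IQGAP2, 0.27 to 0.35 for the IRF1 to IRF2 ratio, -0.22 to -0.12 for STAT3 to STAT6 and -0.15 to 0.12 for IRF9 to STAT2, which was 0.12 without control replicate 1 and 0.04 without knockdown replicate 2. With the replicate block 3167 genes were higher and 3024 lower, and 2 members each way. Same-numbered libraries did not deviate together (r of -0.067, -0.038 and 0.019 for numbers 1, 2 and 3), so no effect shared by number was seen. Whether the numbers pair libraries by design is not given in the labels. At 73 to 122 reads per library, depth limits the precision of IRF9.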
